A study of Mus musculus with 16 samples.

Results

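The subject here is a set of 8 secreted proteases of the ADAMTS family that cut proteoglycans or cartilage oligomeric matrix protein (Comp): Adamts1, Adamts4, Adamts5, Adamts7, Adamts8, Adamts9, Adamts12 and Adamts15. They were taken by gene symbol from the 25719 genes listed in the count files. All 8 were found, and all 8 passed the expression filter that left 14803 genes for testing. RNA had been sequenced from tail tendon fascicles, the fine collagen strands of the mouse tail, in 8 wild type (WT) libraries and 8 libraries labelled KO, which the series describes as ScxCre;Vhlf/f. In such animals Cre recombinase, driven by the tendon gene Scx, removes the floxed part of Vhl from cells of the Scx lineage, and cells outside that lineage keep the gene. Age, sex and the Cre or flox status of the wild type mice are not given in the sources used here, nor is it said that each library came from a separate animal. P-values therefore measure the spread between these libraries. The Vhl protein recognises hydroxylated HIF proteins and sends them to the proteasome. The study asks how HIF1α acts in tendon.

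ADAMTS proteases are zinc metalloproteinases with thrombospondin repeats. They are made as inactive precursors, trimmed by furin-like convertases, and work in the matrix outside the cell. ADAMTS4 and ADAMTS5 are the classical aggrecanases, which cleave the core protein of aggrecan. ADAMTS1, ADAMTS8, ADAMTS9 and ADAMTS15 also cut the large hyaluronan-binding proteoglycans, versican among them, and ADAMTS7 and ADAMTS12 bind and cut Comp. In tendon these enzymes turn over the proteoglycans between collagen fibres, and TIMP3 is their main tissue inhibitor.

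Total counts per library ranged from 10488355 to 18753254. Vhl lay between 7.51 and 10.9 CPM (counts scaled by library size) in the KO and between 14.1 and 25.8 CPM in the WT, so each library followed its label. Tenocyte markers, 8 genes, were abundant in every library, summing to between 129837 and 379895 CPM in the WT and between 76425 and 179855 CPM in the KO, and 6 of the 8 were lower in the KO. Y-linked transcripts were abundant in 2 libraries of each group, KO library 5 held a trace, and the others had none. Markers of other cells differed between libraries. The summed level of 12 endothelial markers was 40.8 to 59.0 CPM in the WT and 59.2 to 538 CPM in the KO, without overlap, and 6 of the 8 that could be tested were higher in the KO. None of the 12 was at 0 in every WT library. Mural cell markers ran from 355 to 510 CPM in the WT and from 366 to 2148 CPM in the KO, and erythroid markers from 15.1 to 50.7 CPM and from 77.3 to 560 CPM. Keratinocyte markers were lower in the KO without overlap (27.2 to 54.3 CPM against 20.9 to 26.1 CPM), and Krt1 was at 0 in every WT library. Adipocyte markers ranged from 0.29 to 1.73 CPM in the WT and from 0.68 to 57.1 CPM in the KO. Skeletal muscle markers, 12 genes, summed to between 50.9 and 4403 CPM in the WT and between 147 and 8570.1 CPM in the KO, and 1 of the 12 was higher in the KO. KO libraries 6, 7 and 8 and WT library 5 held the highest muscle scores. KO libraries 5, 6 and 8 and WT library 8 stood apart by Scx, at 479 CPM or more where the other 12 libraries had at most 140 CPM. Macrophage markers ran from 1125 to 1608 CPM in the WT and from 1285 to 1839 CPM in the KO. Schwann cell markers ran from 21.9 to 34.5 CPM in the WT and from 21.4 to 76.3 CPM in the KO. The part of the mural, erythroid, keratinocyte, adipocyte, macrophage, Schwann cell and tenocyte marker levels in the results below was not tested. In whole tissue, fewer cells of a type and less RNA per cell cannot be told apart.

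In the KO tendons Adamts4 rose 3.76-fold, and Adamts5, Adamts7 and Adamts15 fell to 0.698, 0.698 and 0.74 of their WT levels. Adamts1, Adamts8, Adamts9 and Adamts12 did not pass the threshold. Thus 4 of 8 genes passed, 1 higher and 3 lower, where 48.3% of all tested genes passed, 25.6% higher and 22.7% lower. That share is close to the background. Fold changes were taken from the quasi-likelihood test of edgeR on library sizes scaled by trimmed means (TMM), with Benjamini-Hochberg adjustment over all tested genes and a threshold of 0.05. The median log2 fold change of the 8 genes was 0.25, against 0.02 over all tested genes. In 1 of the 8, Adamts4, the groups did not overlap, where 19.4% of all genes had none (10.8% higher and 8.61% lower). When libraries were scaled by their totals without TMM, the median over all genes became 0.32 and 85.4% of all calls were higher in the KO, against 53.0% on the TMM scale. On that scale 4 of the 8 genes were called higher and 0 lower. Over all 14803 tested genes 8270 were called higher and 1415 lower on it, so most genes moved the same way. Relative to the median of all genes, Adamts5 stood at -0.54 with TMM and at -0.55 with total counts, and Adamts4 at 1.89 and 1.90.

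**Figure D1:**
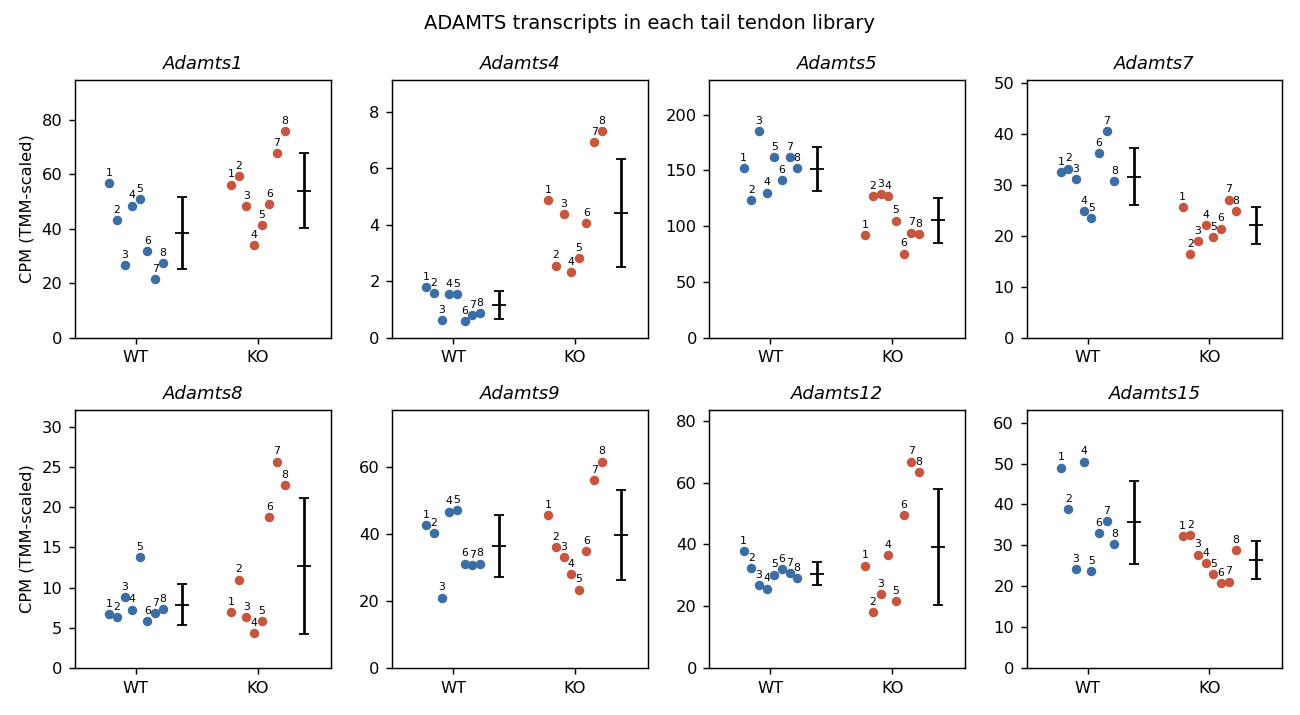
TMM-scaled CPM (vertical axis, from 0) of the 8 proteases in each WT (blue) and KO (red) library, numbered by replicate, with the mean and SD of 8 libraries as black bars. Adamts4 is the gene whose KO libraries all lie above the WT libraries, and KO libraries 6, 7 and 8 lie above the other libraries for Adamts8 and Adamts12.

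Levels of different genes were compared per kilobase of annotated exon (CPM per kb). In the WT, Adamts5 was the most abundant, at 14.0 ± 1.85 CPM per kb (SD, n = 8), above Adamts1 in all 8 libraries. Then came Adamts1 at 7.23 ± 2.49, Adamts7 at 5.03 ± 0.887, Adamts15 at 3.44 ± 0.980, Adamts12 at 2.80 ± 0.338, Adamts9 at 2.42 ± 0.615 and Adamts8 at 1.71 ± 0.555 CPM per kb. From Adamts1 down to Adamts8 the ranges of each pair of neighbours overlapped, with the order kept in 6 or 7 of 8 libraries. Adamts4 was last, at 0.243 ± 0.102 CPM per kb, below Adamts8 in all 8.

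In the KO, Adamts1 (10.2 ± 2.58 CPM per kb) and Adamts5 (9.76 ± 1.87 CPM per kb) shared the top, each being the higher in 4 of 8 libraries. Adamts12, Adamts7, Adamts8, Adamts9 and Adamts15 followed with means between 3.58 and 2.55 CPM per kb and overlapping ranges between neighbours. Single libraries often went against this order of means. Adamts12 lay above Adamts7 in 3 of 8 libraries, Adamts8 above Adamts9 in 3 and Adamts9 above Adamts15 in 3. Adamts7 lay above Adamts8 in 5 of 8. Adamts4 remained the lowest in all 8 libraries, at 0.915 ± 0.396 CPM per kb. The sum over the 8 genes was 36.9 ± 3.10 CPM per kb in the WT and 35.9 ± 6.31 CPM per kb in the KO. Adamts5 made up 38.2% ± 5.92 of that sum in the WT and 28.1% ± 8.02 in the KO. The share of Adamts1 was 19.3% ± 5.38 and 28.1% ± 3.33, and that of Adamts4 0.647% ± 0.238 and 2.47% ± 0.699 (SD, n = 8).

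**Figure D2:**
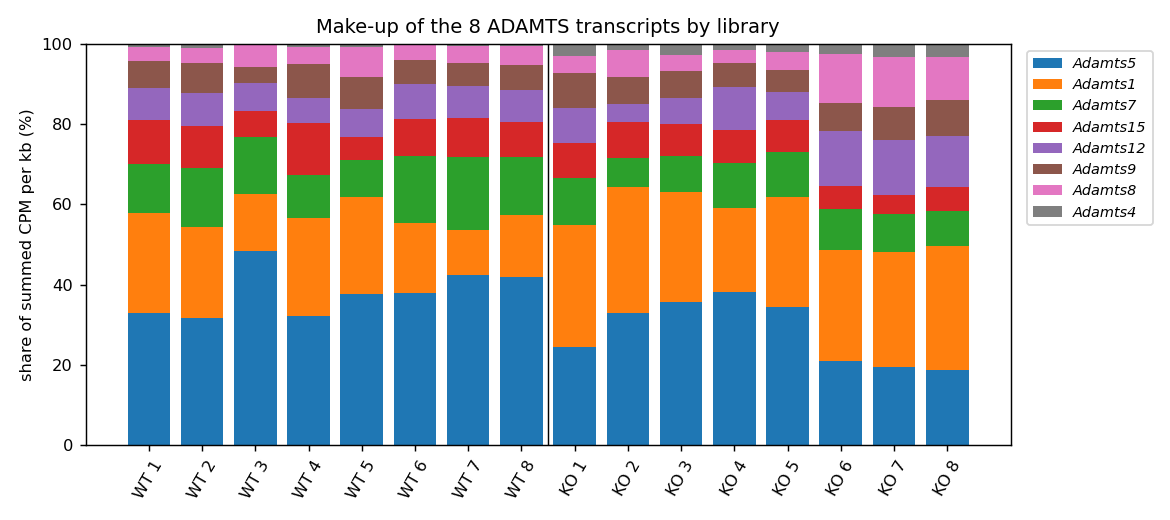
Share of each protease in the summed CPM per kb of all 8 (vertical axis, percent) for each WT and KO library. Adamts5 takes 31.6% to 48.5% in the WT and 18.7% to 38.2% in the KO, and Adamts4 at most 0.920% in the WT and at least 1.49% in the KO.

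Of the classical aggrecanases, Adamts4 (ENSMUSG00000006403, chromosome 1) was scarce in the WT and higher in the KO. It is known as an inducible aggrecanase. Its lowest, median and highest levels were 0.591, 1.20 and 1.79 CPM in the WT and 2.33, 4.21 and 7.30 CPM in the KO. Every KO library lay above every WT library, and KO libraries 7 and 8 were the highest. The log2 fold change was 1.91 (SE 0.291, 95% interval 1.30 to 2.52), or 3.76-fold (edgeR, Benjamini-Hochberg adjusted p = 1.97e-05). These levels rest on few reads, 7 to 22 counts per WT library and 29 to 143 per KO library. The expression filter can be met by a single genotype, and Adamts4 met it through the KO, where it was high. Without that filter the log2 fold change was also 1.91 (edgeR, adjusted p = 1.34e-05). With the endothelial score, the mean log2 CPM of the tested markers, as a covariate the difference was 1.03 (adjusted p = 0.0420). That score ran from 1.52 to 2.37 in the WT and from 2.30 to 5.58 in the KO, so score and genotype can be told apart only in part. The use of strand in counting is not given in the sources used here, so the counts of Adamts4 may hold reads of the opposite strand and are uncertain.

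Adamts5 (ENSMUSG00000022894, chromosome 16), the other classical aggrecanase and the main one of mouse cartilage, fell. Its lowest, median and highest levels were 123, 152 and 185 CPM in the WT and 75.3, 99.4 and 129 CPM in the KO. No KO library reached the WT median, 5 of the 8 lay below every WT library, and KO library 6 was the lowest. The log2 fold change was -0.52 (SE 0.111, 95% interval -0.75 to -0.29; edgeR, Benjamini-Hochberg adjusted p = 6.42e-04). The call was lost with total counts, at -0.23 (adjusted p = 0.113), and with the endothelial score as a covariate, at -0.22 (adjusted p = 0.316).

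The ratio of the pair within each library does not depend on scaling. For each count of Adamts4 there were 77.1 to 297 counts of Adamts5 in the WT (median 141) and 12.7 to 54.5 in the KO (median 24.3). The ranges did not overlap.

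Adamts15 and Adamts8, neighbours on chromosome 9, both encode enzymes that cut aggrecan and versican. Adamts15 (ENSMUSG00000033453) lay at 23.6, 34.5 and 50.5 CPM in the WT (lowest, median, highest) and at 20.7, 26.7 and 32.4 CPM in the KO. All KO libraries were below the WT median and 3 were below every WT library. It fell by 0.43 on the log2 scale (SE 0.157, 95% interval -0.76 to -0.10; adjusted p = 0.0289). This call was the least secure of the 4. It was lost without WT library 1 (-0.36, adjusted p = 0.0634), WT library 4 (-0.35, 0.0645), KO library 5 (-0.41, 0.0530), KO library 6 (-0.39, 0.0564) or KO library 7 (-0.39, 0.0565). The muscle score as a covariate gave -0.36 (adjusted p = 0.0935), the endothelial score -0.17 (0.661), total counts -0.11 (0.466), leaving out the 4 libraries richest in muscle markers -0.41 (0.0594) and leaving out the 4 with the highest Scx -0.40 (0.127).

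Adamts8 (ENSMUSG00000031994) was measured at 5.82, 7.06 and 13.8 CPM in the WT and at 4.34, 8.96 and 25.7 CPM in the KO (lowest, median, highest). KO libraries 6, 7 and 8, at 18.8, 25.7 and 22.8 CPM, exceeded every other library, and the highest WT value was that of library 5. These are the 4 libraries richest in skeletal muscle markers. The same KO libraries also held the highest endothelial scores (5.00, 5.58 and 5.18), and WT library 5 the highest of the WT (2.37). Leaving out these 4 libraries removes the highest Adamts8 values of both groups. The log2 difference was 0.70 (95% interval -0.08 to 1.47, adjusted p = 0.127). Without those 4 libraries it was -0.04 (adjusted p = 0.893), with the muscle score as a covariate 0.09 (0.818) and with the endothelial score -0.70 (0.200). Total counts gave 1.00, past the threshold (adjusted p = 0.0337). An exon of Adamts8 overlaps Gm29724 on the opposite strand, a gene not analysed here.

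Adamts1 and Adamts9 are the broad versican-cutting members, both also known for roles in vessels and developing tissue. Adamts1 (ENSMUSG00000022893) lies next to Adamts5 on chromosome 16. It was measured at 21.4, 37.5 and 56.8 CPM in the WT and at 34.1, 52.6 and 75.8 CPM in the KO (lowest, median, highest). In 7 of 8 KO libraries it was above the WT median, and 3 were above every WT library. The log2 difference of 0.49 (SE 0.208, 95% interval 0.05 to 0.94) did not pass the threshold (adjusted p = 0.0607). It passed without WT library 1 (0.59, adjusted p = 0.0263), WT library 5 (0.56, 0.0417) or KO library 4 (0.57, 0.0308), with total counts (0.81, 0.00203), non-robust dispersions (0.49, 0.0496), the Y-linked level as a covariate (0.53, 0.0362) and the DESeq2 Wald test (0.48, 0.0353). With the muscle score it was 0.37 (0.189) and with the endothelial score 0.21 (0.680).

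Adamts9 (ENSMUSG00000030022, chromosome 6) did not differ detectably, at 21.0, 35.8 and 47.2 CPM in the WT and 23.4, 35.5 and 61.7 CPM in the KO. KO libraries 7 and 8, at 56.1 and 61.7 CPM, were the only ones above the WT range. The log2 difference was 0.13 (95% interval -0.30 to 0.56, adjusted p = 0.624). It changed sign with the muscle score as a covariate (-0.09), with the endothelial score (-0.48) and without the 4 libraries richest in muscle markers (-0.07), and passed the threshold in none of these. Its exons overlap A730049H05Rik and Gm15737 on the opposite strand. Those genes were at 3.15 and 4.37 CPM in the WT and differed by 0.07 (adjusted p = 0.857) and 0.02 (0.957).

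ADAMTS7 and ADAMTS12 share a domain plan and both cut Comp, the pentameric thrombospondin that organises collagen fibrils. Adamts7 (ENSMUSG00000032363, chromosome 9) fell. It lay at 23.5, 31.8 and 40.5 CPM in the WT and at 16.4, 21.7 and 27.1 CPM in the KO. All KO libraries were below the WT median and 5 were below every WT library. The log2 fold change was -0.52 (SE 0.116, 95% interval -0.76 to -0.27; edgeR, Benjamini-Hochberg adjusted p = 0.00102). It was -0.21 with total counts (adjusted p = 0.122) and -0.85 with the endothelial score as a covariate (adjusted p = 0.00115). Exons of Adamts7 overlap those of Tbc1d2b on the opposite strand, so its counts are uncertain. Tbc1d2b fell as well, by 0.23 on the log2 scale (adjusted p = 0.00595).

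Adamts12 (ENSMUSG00000047497, chromosome 15) was narrow in the WT and wide in the KO. The WT levels were 25.7, 30.4 and 37.7 CPM and the KO levels 18.1, 34.8 and 66.8 CPM (lowest, median, highest). KO libraries 6, 7 and 8 lay above every WT library, at 49.4, 66.8 and 63.4 CPM, and KO libraries 2, 3 and 5 lay below every WT library, at 18.1, 23.8 and 21.7 CPM. The log2 difference was 0.36 (SE 0.244, 95% interval -0.16 to 0.88, adjusted p = 0.241). With the endothelial score as a covariate it turned to -0.98 and passed the threshold (adjusted p = 8.31e-05), without the 4 libraries richest in muscle markers it was -0.20 (adjusted p = 0.327), and with total counts it passed at 0.68 (adjusted p = 0.0261).

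**Figure D3:**
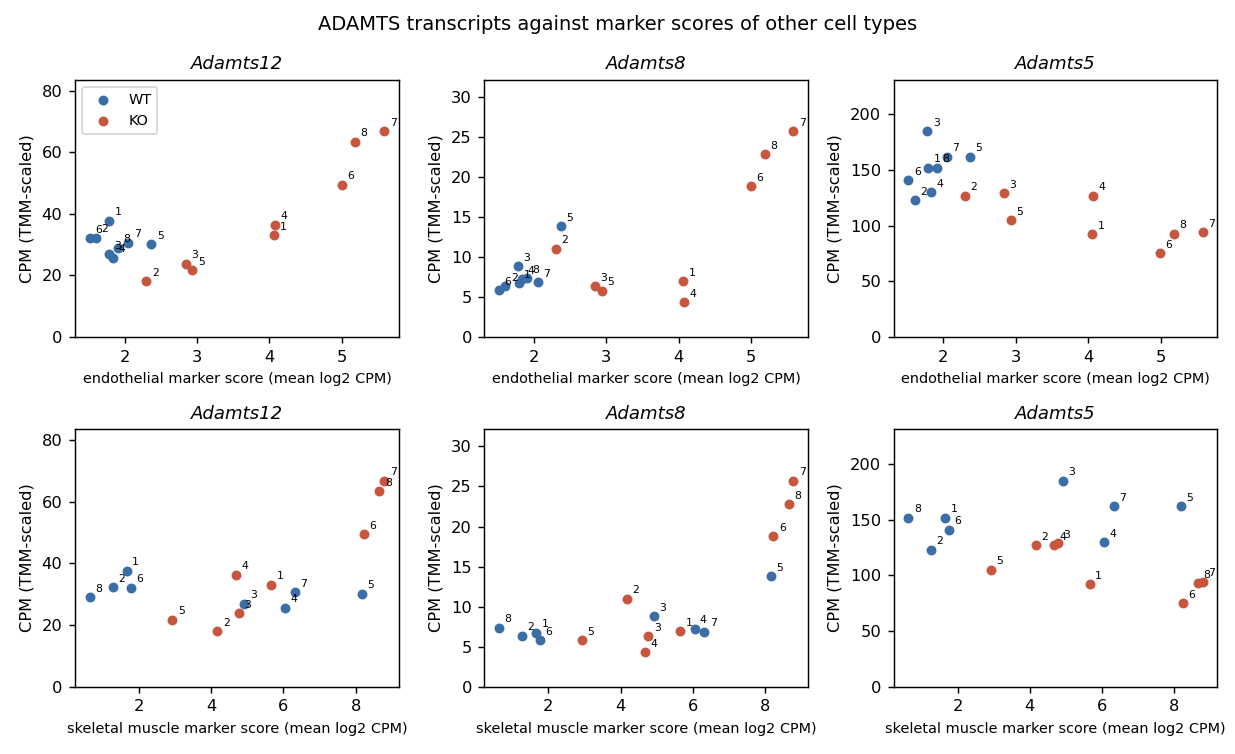
TMM-scaled CPM (vertical axis) of Adamts12, Adamts8 and Adamts5 against the endothelial score (top) and the skeletal muscle score (bottom), both the mean log2 CPM of the tested markers. WT libraries are blue, KO libraries red, with replicate numbers. KO libraries 6, 7 and 8 combine the highest scores with the highest Adamts12 and Adamts8 levels.

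Since loss of Vhl stabilises HIF, promoters were searched for the core of the HIF binding site. The RefSeq table of build GRCm38.p6 matched 3 of the 8 genes, Adamts1, Adamts9 and Adamts12. Each window covers 250 bases before and 50 after the transcription start and is shown 5′ to 3′ on the gene's strand, with matches to that core in capitals. Both of its spellings, ACGTG and GCGTG, were searched on both strands. ACGTG can overlap itself on the other strand in CACGTG, which is also an E-box.
Adamts1, chr16:85803064-85803363, minus strand: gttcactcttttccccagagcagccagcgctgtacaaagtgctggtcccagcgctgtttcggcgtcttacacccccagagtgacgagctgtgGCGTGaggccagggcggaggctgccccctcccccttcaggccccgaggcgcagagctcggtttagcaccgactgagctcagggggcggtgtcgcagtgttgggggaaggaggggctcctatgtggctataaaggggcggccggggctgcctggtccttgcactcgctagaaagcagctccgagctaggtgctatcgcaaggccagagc
Adamts9, chr6:92943485-92943784, minus strand: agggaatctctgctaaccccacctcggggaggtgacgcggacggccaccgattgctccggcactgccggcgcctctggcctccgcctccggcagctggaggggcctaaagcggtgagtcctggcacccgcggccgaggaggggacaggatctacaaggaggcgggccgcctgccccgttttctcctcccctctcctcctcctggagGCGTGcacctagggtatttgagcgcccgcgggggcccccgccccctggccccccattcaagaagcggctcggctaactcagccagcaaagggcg
Adamts12, chr15:11064523-11064822, plus strand: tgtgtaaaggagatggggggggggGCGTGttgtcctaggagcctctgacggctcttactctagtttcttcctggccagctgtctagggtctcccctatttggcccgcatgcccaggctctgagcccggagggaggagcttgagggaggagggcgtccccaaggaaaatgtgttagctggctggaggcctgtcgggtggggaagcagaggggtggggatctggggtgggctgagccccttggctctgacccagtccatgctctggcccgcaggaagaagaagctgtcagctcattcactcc
Each window held 1 match, to GCGTG on the strand of the gene. Counted from the transcription start, it began at -158 in Adamts1, at -44 in Adamts9 and at -226 in Adamts12. ACGTG was not found in these windows. Of 32851 promoter windows of the same length, 43.8% held at least 1 of the 2 motifs, 32.4% GCGTG and 19.6% ACGTG. A match of this kind is a description of the letters and not of binding. None of the 3 genes passed the threshold between genotypes in the main fit. Adamts1 passed as higher in some of the alternatives given above. Adamts12 passed in opposite directions, at 0.68 with total counts and at -0.98 with the endothelial score as a covariate.

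Which other genes varied with each protease was asked after the mean of each genotype had been subtracted, over 16 libraries and 13417 genes with a mean log2 CPM of at least 1. These correlations are descriptions, since the libraries share depth and tissue make-up. Adamts4 and Adamts9 were among each other's 3 closest genes (r = 0.88), and Adamts1 correlated with them at 0.82 and 0.83. Frmd4a was close to both Adamts4 (0.86) and Adamts9 (0.88), and Igdcc4 to both Adamts9 (0.88) and Adamts1 (0.88). Gpr153 (0.85) followed for Adamts4, and Armcx4 (0.94) and Armcx2 (0.87) were the others for Adamts1. Adamts5 ran against most of the set, with correlations between -0.55 (Adamts12) and -0.12 (Adamts15), and was closest to Nhsl1 (0.92), Als2cl (0.85) and Trpv4 (0.78), a calcium channel gated by osmotic and mechanical stimuli.

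Adamts12 was closest to Esam (0.95), an adhesion molecule of endothelial cells that is on the endothelial list, to Sort1 (0.95) and to Nectin2 (0.95). For Adamts8 the closest genes were Pkia (0.94), Mef2c (0.94), a transcription factor of muscle and endothelium, and Nexn (0.94), which encodes an actin-binding protein of muscle. Adamts7 was closest to Spata13 (0.88), Kif9 (0.87) and Tcea2 (0.87), and Adamts15 to Skp2 (0.89), Slc29a3 (0.89) and Gm19514 (0.88). Adamts7 and Adamts12 correlated at 0.63, a value in which the difference between genotypes has no part.

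Of 11 other ADAMTS genes 9 were tested, and 8 passed the threshold (88.9%, against 48.3% of all genes), 4 higher and 4 lower, with a median log2 fold change of 0.34. Adamts2 and Adamts3, which remove the N-terminal propeptide of fibrillar procollagens, fell. Adamts2 lay between 643 and 1624 CPM in the WT and between 443 and 633 CPM in the KO, without overlap (log2 fold change -1.33, SE 0.153, adjusted p = 5.66e-07). Its lowest WT library was library 3. Adamts3 fell by 1.16 (adjusted p = 3.23e-07), while Adamts14, which shares that activity, differed by 0.34 and did not pass (adjusted p = 0.0688). It passed without WT library 2 (0.40, adjusted p = 0.0372) or KO library 2 (0.38, 0.0490), and with total counts (0.65, 7.02e-04).

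Adamts16 rose from 1.05 ± 0.630 to 5.61 ± 2.69 CPM without overlap (log2 fold change 2.40, SE 0.341, adjusted p = 1.10e-05). Like Adamts4 it met the expression filter through the KO, with 4 to 25 counts per WT library. Adamts20, the closest relative of Adamts9, rose by 1.77 (SE 0.430, adjusted p = 0.00300), but by 0.04 with the endothelial score as a covariate (adjusted p = 0.955). Adamts17 fell by 1.45 (SE 0.285, adjusted p = 3.10e-04). The other calls were Adamts6 (0.63) and Adamts19 (0.49), both higher, and Adamts10 (-0.58), lower. The call of Adamts19 was lost with the endothelial score and without any 1 of WT libraries 2, 3, 4 and 5 and KO libraries 1, 3 and 5 (0.39 to 0.59, adjusted p between 0.0505 and 0.149 over these 8 fits). Adamts13 and Adamts18 were too low to be tested.

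The ADAMTS-like proteins have the repeats but no protease domain. All 6 were tested and 3 passed, 1 higher and 2 lower (median -0.27), a share near the 48.3% of all genes. Papln rose by 1.15 (SE 0.233, adjusted p = 4.07e-04). Adamtsl1 differed by -0.59 (adjusted p = 0.00898) and Adamtsl3 by -0.40 (adjusted p = 3.84e-04). Neither of the latter passed with total counts (-0.30 and -0.11), and Adamtsl3 did not pass with the endothelial score either (-0.28, adjusted p = 0.115).

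**Figure D4:**
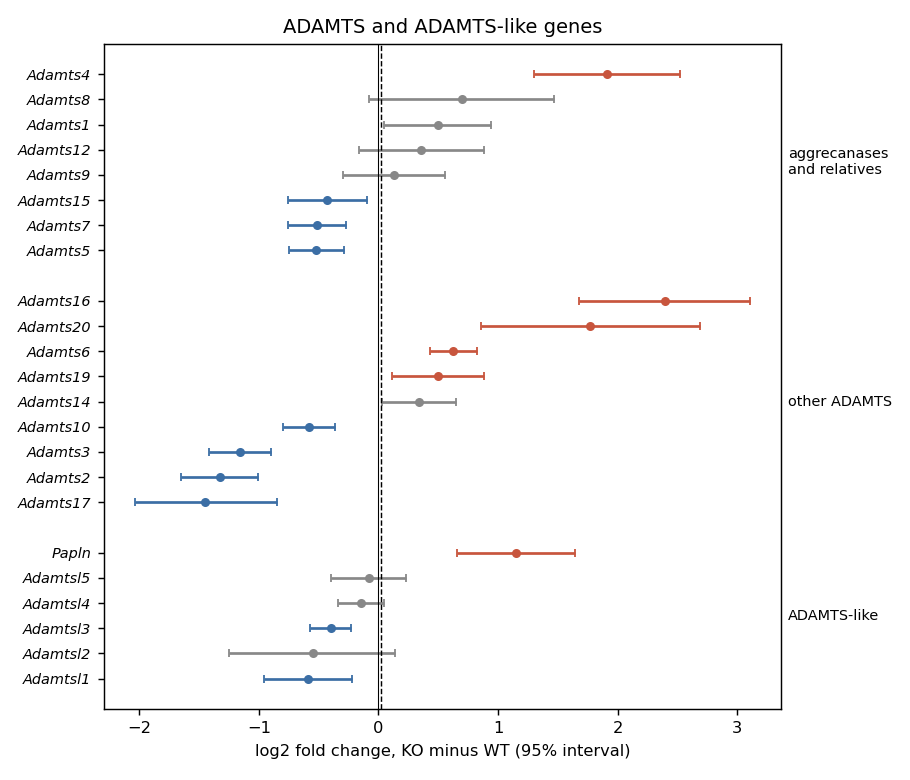
Log2 fold change of KO against WT (horizontal axis) with its 95% interval for the tested ADAMTS and ADAMTS-like genes, coloured by call at an adjusted p of 0.05 (red higher, blue lower, grey not called). The dashed line is the median of all tested genes, 0.02. Adamts4 (1.91) lies above the other 7 aggrecanases and relatives, and Adamts17, Adamts2 and Adamts3 lie below -1.

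The next list holds the proteins these enzymes cut and the link proteins that tie them to hyaluronan. Of 13 tested genes 10 passed (76.9%, against 48.3% of all genes), 4 higher and 6 lower, with a median of -0.01. Acan, the aggrecan gene, rose from 6.24 ± 3.81 to 62.6 ± 26.1 CPM without overlap (log2 fold change 3.34, SE 0.377, adjusted p = 2.42e-06). Hapln1, the link protein of aggrecan, was at 4.39 ± 1.37 CPM in the WT and 43.9 ± 8.59 CPM in the KO (3.32, SE 0.165, adjusted p = 7.15e-12). Acan is also on the cartilage list, whose 8 genes summed to between 652 and 1455 CPM in the WT and between 634 and 1271 CPM in the KO. Of the 5 tested, 2 were higher and 1 lower, and the part of cartilage-like cells in the result was not tested. Bgn (1.11) and Comp (0.39) were also higher. Comp lay between 797 and 1041 CPM in the WT and between 789 and 1733 CPM in the KO (SE 0.128, adjusted p = 0.0177).

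Versican is the substrate shared by most of the 8 enzymes. Vcan had no detectable difference, at 372 ± 114 CPM in the WT and 368 ± 77.7 CPM in the KO (log2 difference -0.01, 95% interval -0.38 to 0.35, adjusted p = 0.951). Its sign varied between alternatives and it passed the threshold in none. Hapln3 fell from 4.97 ± 1.19 to 0.640 ± 0.301 CPM (-2.97, SE 0.241, adjusted p = 4.78e-09), with 2 to 14 counts per KO library. Hapln4 was at 5.60 ± 2.75 CPM in the WT and had 17 counts in all over the 8 KO libraries. Both met the expression filter through the WT, where they were high. Bcan (-2.67), Fmod (-1.29), Lum (-0.53) and Dcn (-0.42) were lower as well. With total counts the calls of Lum (-0.23, adjusted p = 0.123) and Dcn (-0.12, 0.471) were lost. The endothelial score took Lum to -0.50 (0.0532) and turned Dcn to 0.05 (0.856), and Dcn also failed to pass with the muscle score (-0.30, 0.0782) and without the 4 libraries richest in muscle markers (-0.34, 0.0820). Nid1 (0.22) and Nid2 (0.02) passed only with total counts (0.53 and 0.32), and Ncan was too low to be tested.

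Genes that inhibit, clear or activate these proteases passed in 10 of 13 tested cases (76.9%, against 48.3% of all genes), 6 higher and 4 lower, with a median of 0.11. Timp3, which encodes their main tissue inhibitor, was at 324 ± 87.5 CPM in the WT and 246 ± 76.8 CPM in the KO and did not pass (log2 difference -0.40, SE 0.190, adjusted p = 0.0939). It passed without KO library 7 (-0.50, adjusted p = 0.0328), with the muscle score (-0.67, 0.00175), with the endothelial score (-0.96, 0.00863) and without the 4 libraries richest in muscle markers (-0.66, 0.00494). Timp3 and Syn3 share exon sequence on opposite strands, so its counts are uncertain. Syn3 was at 132 ± 40.2 CPM in the WT and 97.5 ± 33.5 CPM in the KO (-0.44, adjusted p = 0.106). Timp1 rose from 15.5 ± 3.96 to 48.7 ± 14.8 CPM (1.65, adjusted p = 9.52e-07) and Timp2 was lower (-1.17, adjusted p = 5.68e-09), neither with overlap. A2m encodes a plasma protease trap that also binds aggrecanases. It had at most 2 counts in any WT library and lay between 105 and 177 CPM in the KO (adjusted p = 5.09e-16). A2m thus met the expression filter through the KO, where it was high.

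Lrp1, the endocytic receptor that clears ADAMTS4 and ADAMTS5, fell by 0.41 (SE 0.122, adjusted p = 0.00960), and by 0.10 with total counts (adjusted p = 0.453) and 0.36 with the endothelial score (0.214). The syndecans, cell surface proteoglycans, went apart. Sdc4, known to promote ADAMTS5 activity, was at 154 ± 13.6 CPM in the WT and rose to 348 ± 64.2 CPM (1.17, SE 0.0996, adjusted p = 8.98e-09). Sdc1 fell from 229 ± 54.3 to 42.2 ± 4.15 CPM (-2.44, SE 0.128, adjusted p = 1.04e-11). Fn1, whose fibronectin product binds and inhibits ADAMTS4, rose from 1414 ± 201 to 4206 ± 702 CPM (1.57, SE 0.120, adjusted p = 2.00e-09). Its exons overlap Apol7d on the opposite strand, a gene not analysed here.

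Of the convertases that remove the propeptide, Pcsk6 was higher (0.54, SE 0.0882, adjusted p = 4.49e-05), and its exons overlap Gm45213 on the same strand. Gm45213 rose too (0.46, adjusted p = 3.61e-04), so the counts of Pcsk6 are uncertain. Pcsk5 was also higher (0.35, adjusted p = 0.0450), but lost its call in 13 alternative fits (0.28 to 0.37, adjusted p between 0.0516 and 0.378). These were DESeq2 size factors, no expression filter, the muscle score, the endothelial score, the 4 libraries with the highest Scx left out, and any 1 of WT libraries 2, 6, 7 and 8 or KO libraries 2, 4, 7 and 8 left out. Furin did not differ detectably (0.03, 95% interval -0.14 to 0.19, adjusted p = 0.797), and with total counts it stood at 0.34 (adjusted p = 1.68e-04) where all genes had a median of 0.32. Grn, whose product progranulin binds ADAMTS7 and ADAMTS12, was lower (-0.36) but not called with total counts (-0.05), the endothelial score (-0.28) or the 4 libraries with the highest Scx left out (-0.32). Mmp17, an activator of ADAMTS4, did not pass (0.11) and Timp4 was too low to be tested. The enzymes that attach fucose and glucose to thrombospondin repeats, needed for secretion of several ADAMTS proteins, were Pofut2 (0.15, adjusted p = 0.141) and B3glct (-0.03, 0.790). In this pair edgeR called 0 of 2, and 0 had an unadjusted p under 0.05. DESeq2 and limma-voom also called 0. Pofut2 passed with total counts (0.46), the endothelial score (0.38, adjusted p = 0.0179) and without the 4 libraries richest in muscle markers (0.25, 0.0416), and B3glct with total counts (0.28). Exons of Furin, Grn, Nid1, Nid2 and Pofut2 overlap other genes on the opposite strand, so their counts are uncertain too.

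**Figure D5:**
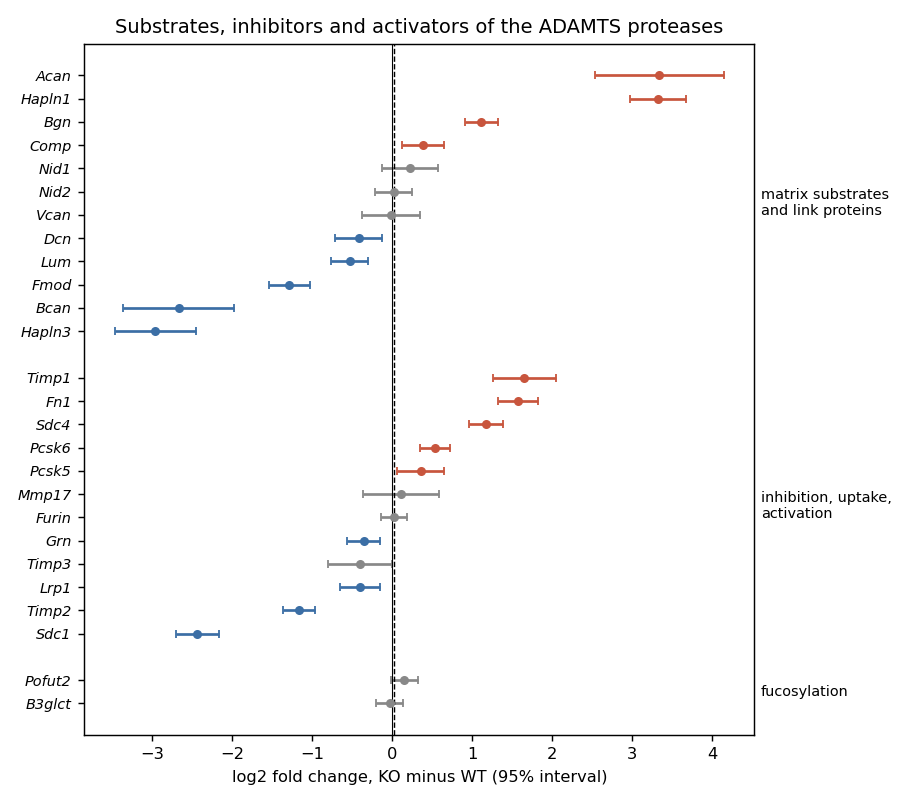
Log2 fold change of KO against WT (horizontal axis) with its 95% interval for tested substrates, link proteins, inhibitors, clearance and activation genes and fucosylation enzymes, coloured as red higher, blue lower and grey not called, with the median of all tested genes dashed. A2m and Hapln4 are left out because 1 of their groups was at or near 0 counts. Acan and Hapln1 sit together above 3, and Hapln3, Bcan and Sdc1 below -2.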

How the data were processed

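RNA-seq counts were analysed for 16 libraries. The deposited files hold whole-number counts per Ensembl gene, 1 library per file, and are raw counts per the file headers and values. The submitters' processing notes name kallisto, featureCounts and build GRCm39. Versions, annotation and strand setting are not given in the sources used here. Symbols were matched for 25614 of 25719 identifiers. Exon lengths, overlaps and gene order came from GENCODE M21 (GRCm38), so no gene positions are given.

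Genotype was the only term in edgeR 4.0.16 (R 4.3.3; robust quasi-likelihood, TMM, default expression filter, two-sided). CPM use TMM-scaled library sizes, and log2 CPM a prior count of 2. Scores are mean log2 CPM of tested markers. The fit was tested on simulated data. Alternatives used DESeq2 1.42.0, limma 3.58.1, other scalings and filters, covariates, the replicate number, and each library left out. The 2 sets of 4 libraries left out were chosen after seeing the data.

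The 8 genes and all lists were chosen with earlier results of these data known. Named were the 8 genes, 12 preset genes (Vhl, Acan, Vcan, Comp, Timp3, Timp1, A2m, Lrp1, Sdc4, Furin, Pcsk6, Fn1), up to 4 called genes with the largest change per list, and the 3 genes most alike to each protease. Other genes are named to account for their list, or as exon-overlap partners, and were chosen after their values were seen. Scx and Bop1 were added to check the libraries. Counts of 3 or fewer were taken as the floor of detection. A result on 1 other gene is not reported here.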

Additional observations from a re-analysis of the deposited data

Results flagged for a closer look

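In 72 checks of 8 libraries each, 5 had a lowest or highest library apart from the others, where chance flags about 1 in 20. None concerned the 8 proteases. Among the WT libraries, library 8 was highest for Scx (log2 CPM 10.01, next 7.13) and for Bop1 (6.77, next 5.15). The same library was the lowest of the WT for Fn1 (9.95, next 10.37) and Papln (-0.27, next 0.88). WT library 3 was the lowest of the WT for Adamts2 (9.33, next 10.09). Bop1 stood at 777, 459 and 920 CPM in KO libraries 5, 6 and 8, which also stood apart by Scx, and at 109 CPM in WT library 8. The other KO libraries held 62.3 to 84.0 CPM and the other WT libraries 20.7 to 35.4 CPM. Bop1 was called higher in the KO (log2 fold change 3.01, edgeR, adjusted p = 0.00331).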

How the results depend on the processing

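Of the 4 called proteases, Adamts4 kept its direction and call in all 28 alternatives and in both chosen after seeing the data, with a log2 fold change between 1.03 and 2.22. Over all genes 7151 calls became 4621 with the endothelial score as a covariate. With total counts 8270 of 14803 genes were called higher and 1415 lower, against 3792 and 3359 in the main fit. Proteases called higher numbered 1, but 4 with total counts and 2 with the DESeq2 Wald test, non-robust dispersions or the Y-linked level, and 1 to 2 with single libraries left out. Those called lower numbered 3, but 0 with total counts, 2 with the muscle score, with the endothelial score and with either set of 4 libraries left out, and 2 to 3 with single libraries left out. With the endothelial score the 2 were Adamts7 and Adamts12. Proteases without overlap between groups numbered 1 to 2 when single libraries were left out (2 without WT replicate 2). Over all 14803 genes of the main fit, 1603 higher and 1274 lower had no overlap. Without WT replicate 2 these were 1666 and 1327 of 14918. Genes of the other lists called lower fell from 16 to 10 with total counts, where those of all genes fell from 3359 to 1415. Signs turned for Adamts8 (-0.70 with the endothelial score, -0.04 without the 4 muscle-rich libraries), Adamts9 (-0.48 and -0.07, and -0.09 with the muscle score), Adamts12 (-0.98 and -0.20) and Vcan (0.07 and 0.08, 0.28 with total counts, 0.01 with the Y-linked level, -0.11 to 0.08 with single libraries left out). Furin ranged from -0.02 to 0.06 with single libraries left out. The cause of these changes was not tested.

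The labels number the replicates alike in both groups, but same-numbered libraries did not deviate together (correlations between -0.397 and 0.394, and 1 of 8 KO libraries was closest to its own number). With the replicate number as a block 7010 genes passed, Vcan was at 0.02, no call of the 8 proteases changed, and Adamts14 passed (0.34, adjusted p = 0.0380). Depth limits Adamts4 most, at 7 counts in the lowest library.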
